A study of Mus musculus with 6 samples.

Results

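Hedgehog signalling is described here through 10 genes in the maxillary prominence of the mouse embryo: the ligand gene Shh, the receptor and modulator genes Ptch1, Hhip and Smo, the Gli transcription factor genes Gli1, Gli2 and Gli3, and the related Glis1, Glis2 and Glis3. These were 10 of the 53801 genes in the count files. They were chosen for their place in the pathway or their Gli-type zinc fingers, and from earlier results of the comparison of Dlx2OE with WT in these samples, so their levels and fold changes in that comparison are a description and carry no test.

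The maxillary prominence is the part of the first pharyngeal arch that forms the upper jaw and the palatal shelves. It was dissected at embryonic day 12.5 from mice labelled C57BL/6 (C57BL/6J in the protocols) and measured by bulk RNA sequencing of poly(A) RNA in 3 WT (wild type) and 3 Wnt1cre; Rosa26Dlx2/- samples, the latter called Dlx2OE here. In Dlx2OE embryos, Cre recombinase driven by Wnt1 in the neural crest, the source of the facial mesenchyme, removes a stop cassette and switches on a Flag-tagged Dlx2 under the CAG promoter in the Rosa26 locus. The controls are labelled wild type only, and with no group labelled as carrying Cre alone, Cre and Dlx2 cannot be told apart in this design. The labels describe 3 independent RNA samples per genotype from littermates, and which embryos went into which sample is not stated.

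Dlx2 encodes the homeodomain factor that the transgene supplies, and the WT samples held 1255, 1056 and 1409 counts of it, the Dlx2OE samples 3521, 4102 and 3336. It was 3.03-fold higher in Dlx2OE (log2 fold change 1.60, SE 0.118, Benjamini-Hochberg adjusted p = 0.00241 by the quasi-likelihood test of edgeR), and the counts do not separate the endogenous transcript from the transgene. The libraries held 26155500 to 31308813 read pairs on genes, which makes 3 counts equal to 0.0955 to 0.111 CPM (the standard count rate relative to library size, here scaled by edgeR's trimmed mean of M-values, TMM). Dlx2OE 3 stood apart by its share of read pairs on no annotated gene, 15.4% against 5.34% to 8.21% in the other samples, and Dlx2OE 1 by its position on the second principal component.

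Hedgehog ligands such as Sonic hedgehog are secreted proteins, made in the face mainly by epithelia and received by the mesenchyme below. Without ligand, the receptor Patched keeps the membrane protein Smoothened inactive at the primary cilium, and Gli2 and Gli3 are held back or cut into repressors. With ligand, Smoothened is released, full-length Gli factors activate transcription, and Ptch1, Gli1 and Hhip are themselves induced, so their transcripts are widely read as a record of pathway activity. In the palate, Shh signalling from the oral epithelium sustains growth of the shelf mesenchyme, in part through Fox genes. Glis factors share the zinc finger type of the Gli family but are not known as standard members of the pathway.

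Among the 10 genes, Glis1 and Glis3 differed most between the genotypes, and both were higher in Dlx2OE, by 13.5-fold and 4.15-fold. Gli2 and Gli3 were also higher, by 1.63-fold and 1.51-fold. Shh and its decoy receptor gene Hhip were lower, by 2.47-fold and 2.23-fold, whereas the principal readout genes Gli1 and Ptch1, the transducer gene Smo and Glis2 had overlapping ranges in both genotypes. With the fit across 17514 genes, 6 of the 10 had an adjusted p under 0.05, beside 6.45% of all genes tested. The 4 higher stood beside 2.99% and the 2 lower beside 3.46% of all genes. With a further threshold of 1 on the log2 fold change, 2 were higher (Glis1 and Glis3) beside 1.5%, and 2 were lower (Shh and Hhip) beside 1.62%. Because the genes were chosen from this comparison, nothing is read from these counts. The ranges of the genotypes did not overlap for the same 6 genes, and for 34.1% of all genes tested. In bulk tissue, fewer cells of a type and less RNA per cell cannot be told apart, and this holds for each difference below.

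**Figure D1:**
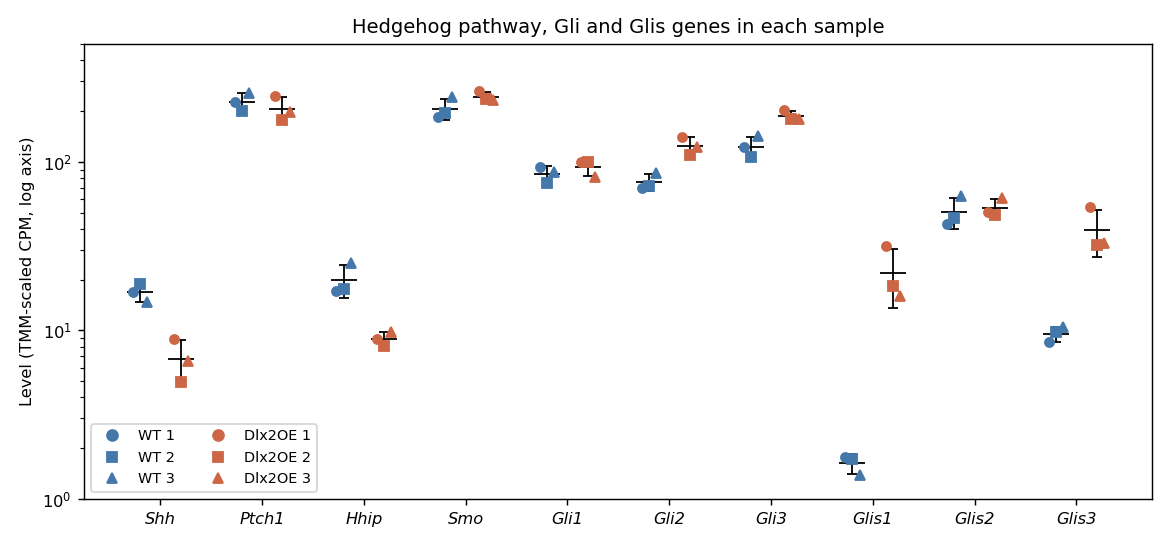
Levels of the 10 genes in each sample, in CPM scaled with edgeR's TMM factors on a log axis, with WT in blue and Dlx2OE in orange. Horizontal bars mark the mean and whiskers the SD over 3 samples. Glis1 sits between 1.38 and 1.78 CPM in WT and between 16.0 and 31.7 CPM in Dlx2OE, whereas the Gli1 points of both genotypes lie side by side.

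Shh (ENSMUSG00000002633, chr5:28456815-28467256, minus strand, GRCm38) encodes the ligand itself. Its level was 16.8, 18.8 and 14.8 CPM in the WT samples and 8.88, 4.97 and 6.54 CPM in the Dlx2OE samples. Every WT sample was above every Dlx2OE sample, with the nearest pair at 14.8 and 8.88 CPM. The WT mean was 16.8 ± 1.98 CPM and the Dlx2OE mean 6.79 ± 1.97 CPM (± is the SD over n = 3 samples, here and below), and the log2 fold change was -1.31 (SE 0.230). Of the exon bases of Shh, 28.3% are shared with the antisense genes 9530036O11Rik and Gm26894, each of which had 0 to 8 counts in any sample. Whether the counting used strand is not given in the sources used here. Shh passed the threshold in 2 of the 6 fits that left out 1 sample, those without WT 3 and without Dlx2OE 1, with log2 fold changes from -1.56 to -1.12 over the 6.

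Since Shh is made by epithelium, the level of 16 epithelial marker genes was set beside it. Their summed level was 958, 1660 and 1250 CPM in WT and 2270, 762 and 772 CPM in Dlx2OE, so the ranges overlapped and Dlx2OE 1 held the highest value of all. Of the 16, the simple-epithelium keratin genes Krt8 and Krt18 and the claudin gene Cldn7 fell, with log2 fold changes of -2.11, -1.85 and -1.54 (adjusted p = 0.00939, 0.0233 and 0.0340, edgeR). The signalling gene Wnt7b rose by 2.07 on that scale (adjusted p = 0.0327, edgeR). Of all genes tested, 3.46% fell and 2.99% rose. Leaving out WT 2, Dlx2OE 2 or Dlx2OE 3 ended the calls of Krt18 and Cldn7, and leaving out WT 1 or WT 2 that of Wnt7b (adjusted p up to 0.0836, 0.133 and 0.129, edgeR). As a share of the summed markers, Shh was 1.75%, 1.13% and 1.18% in WT and 0.390%, 0.652% and 0.847% in Dlx2OE, again without overlap. That sum holds Krt5, at 42.7, 91.7 and 79.5 CPM in WT and 538, 121 and 147 CPM in Dlx2OE. Of the 16 markers, 2 (Krt5 and Wnt7b) were higher in every Dlx2OE sample and 4 were lower, beside 34.1% of all genes tested without overlap. The share of Shh has these markers in its denominator and so also follows their levels. Against single markers the answer depended on the marker. Shh was lower in every Dlx2OE sample relative to 11 of the 16, and the ranges overlapped relative to the other 5, which were Epcam, Krt8, Krt18, Cldn6 and Cldn7. The ventral brain also makes Shh, and the summed level of 8 neuroepithelium and brain markers was 85.8, 188 and 146 CPM in WT and 67.4, 32.5 and 37.8 CPM in Dlx2OE. Most of that sum was Sox2, a factor shared by neural and oral epithelial progenitors, which fell with a log2 fold change of -1.67 (adjusted p = 0.00844, edgeR), while Rax was at or near 0 in all samples and Nkx2-1 between 0.111 and 0.605 CPM. The part of either cell source in the Shh difference was not tested.

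**Figure D2:**
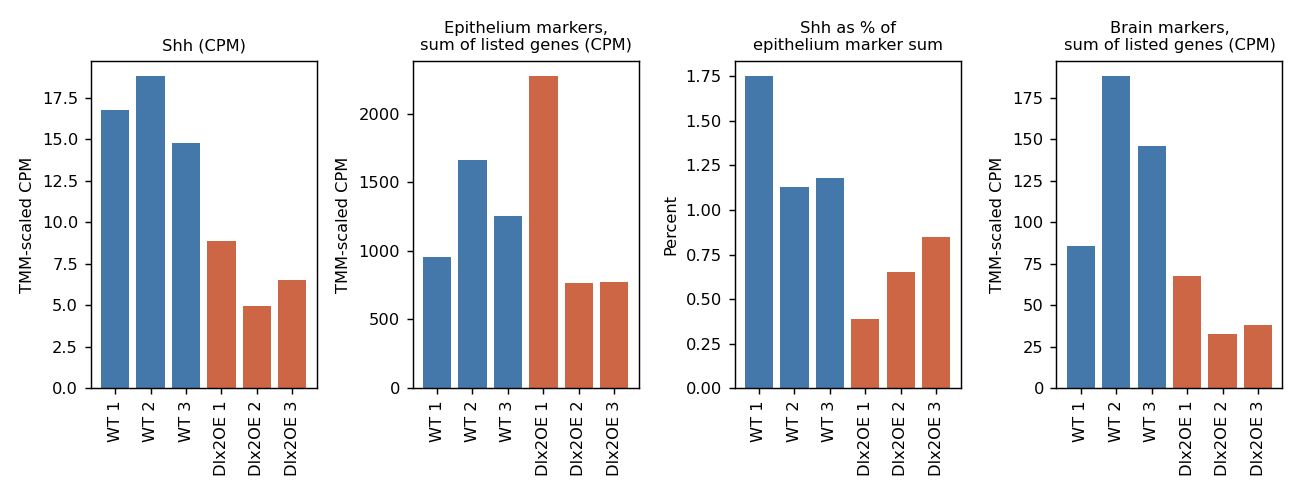
Shh, the summed epithelial markers, Shh as a percent of that sum, and the summed brain markers, 1 bar per sample in TMM-scaled CPM or percent, with WT in blue and Dlx2OE in orange. Shh is lower in all 3 Dlx2OE samples, while the epithelial sum is highest in Dlx2OE 1 at 2270 CPM and the brain sum is below every WT sample in all 3.

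Ptch1 (ENSMUSG00000021466, chr13:63508328-63573598, minus strand) encodes the Hedgehog receptor and is an induced target. Its level was 225, 201 and 257 CPM in WT and 246, 178 and 197 CPM in Dlx2OE. The ranges overlapped, with means of 227 ± 28.1 and 207 ± 35.0 CPM and a log2 fold change of -0.14 (SE 0.150). With a correction for gene length and GC content it was -0.40, and Ptch1 did not pass the threshold there either. Hhip (ENSMUSG00000064325, chr8:79965851-80058006, minus strand) encodes a membrane protein that binds and sequesters the ligand. Its level was 17.1, 17.6 and 25.0 CPM in WT and 8.91, 8.09 and 9.78 CPM in Dlx2OE. The 3 Dlx2OE samples lay close together and below all WT samples. The means were 19.9 ± 4.43 and 8.93 ± 0.848 CPM, with a log2 fold change of -1.15 (SE 0.189). Hhip passed the threshold in 4 of the 6 fits that left out 1 sample, all but those without WT 2 and without Dlx2OE 2, over which its log2 fold change ran from -1.26 to -0.97. Both genes are induced by the pathway, and their log2 fold changes were -0.14 and -1.15.

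Smo (ENSMUSG00000001761, chr6:29735503-29761365, plus strand) encodes Smoothened, the transducer that Patched inhibits. Its level was 185, 195 and 241 CPM in WT and 263, 236 and 232 CPM in Dlx2OE. Only WT 3 reached into the Dlx2OE range, and the log2 fold change was 0.23 (SE 0.127) with means of 207 ± 29.7 and 244 ± 16.6 CPM.

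Gli1 (ENSMUSG00000025407, chr10:127329882-127341974, minus strand) encodes the activator that the pathway induces. Its level was 93.1, 74.4 and 86.6 CPM in WT and 99.3, 100 and 81.0 CPM in Dlx2OE. The ranges overlapped, with means of 84.7 ± 9.48 and 93.5 ± 10.9 CPM and a log2 fold change of 0.14 (SE 0.126). It passed the threshold in none of the 15 alternative fits, which gave log2 fold changes from 0.04 to 0.24. Over the 6 samples, the genes whose log2 CPM followed Gli1 most closely were Edrf1, Dis3, Gtpbp8, Ncl and Pola1, with Pearson r of 0.994, 0.992, 0.991, 0.991 and 0.987 among 13224 genes compared. As a description over samples that share libraries, 45 of those genes had r above 0.95. Within the 10 genes, r with Gli1 was highest for Gli3 at 0.61, and 0.12 for Ptch1 and -0.48 for Shh and for Hhip.

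Gli2 (ENSMUSG00000048402, chr1:118834132-119053619, minus strand) encodes the main activator of the response to ligand. Its level was 69.8, 72.1 and 86.3 CPM in WT and 141, 109 and 123 CPM in Dlx2OE. Every Dlx2OE sample was above every WT sample, with means of 76.1 ± 8.91 and 124 ± 16.0 CPM and a log2 fold change of 0.71 (SE 0.131). Gli3 (ENSMUSG00000021318, chr13:15463235-15730026, plus strand) encodes the factor that serves mainly as a repressor in the absence of ligand. Its level was 122, 107 and 142 CPM in WT and 202, 180 and 179 CPM in Dlx2OE. These ranges did not overlap either, and the means were 123 ± 17.4 and 187 ± 12.9 CPM with a log2 fold change of 0.60 (SE 0.125). Gli2 passed the threshold in 2 of the 6 fits that left out 1 sample, those without WT 3 and without Dlx2OE 1, with log2 fold changes from 0.60 to 0.80, and Gli3 in 1, that without WT 3, with 0.50 to 0.70. With a correction for gene length and GC content the log2 fold changes were 0.53 for Gli2, past the threshold, and 0.43 for Gli3, which was not (edgeR).

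Glis1 (ENSMUSG00000034762, chr4:107434591-107635061, plus strand) and Glis3 (ENSMUSG00000052942, chr19:28258851-28680077, minus strand) encode Krüppel-like zinc finger factors. Glis3 is best known for its part in pancreatic beta cells, thyroid and kidney, and Glis1 for promoting reprogramming to pluripotency. RefSeq windows of the promoter, 250 bases before to 50 after the annotated start in build GRCm38.p6, were found for 7 of the 10 genes, all but Shh, Gli1 and Glis2. Those of Glis1 and Glis3, the genes that differed most, and of Gli2, the one window with a match to a motif searched, are shown 5′ to 3′ in the direction of transcription, at chr4:107434469-107434768 (plus strand), chr19:28680028-28680327 (minus strand) and chr1:119053570-119053869 (minus strand), with the match in capitals.
Glis1: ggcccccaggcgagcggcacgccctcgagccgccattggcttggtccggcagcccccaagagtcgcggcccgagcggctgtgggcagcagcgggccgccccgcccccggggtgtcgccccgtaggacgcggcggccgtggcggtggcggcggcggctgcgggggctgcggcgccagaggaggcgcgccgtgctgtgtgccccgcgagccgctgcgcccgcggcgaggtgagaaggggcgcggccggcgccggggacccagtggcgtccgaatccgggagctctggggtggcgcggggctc
Glis3: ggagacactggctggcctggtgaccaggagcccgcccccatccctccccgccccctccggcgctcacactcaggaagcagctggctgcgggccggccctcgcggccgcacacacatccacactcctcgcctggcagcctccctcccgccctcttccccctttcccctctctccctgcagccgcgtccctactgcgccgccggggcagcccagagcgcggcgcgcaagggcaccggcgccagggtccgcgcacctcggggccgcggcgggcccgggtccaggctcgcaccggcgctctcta
Gli2: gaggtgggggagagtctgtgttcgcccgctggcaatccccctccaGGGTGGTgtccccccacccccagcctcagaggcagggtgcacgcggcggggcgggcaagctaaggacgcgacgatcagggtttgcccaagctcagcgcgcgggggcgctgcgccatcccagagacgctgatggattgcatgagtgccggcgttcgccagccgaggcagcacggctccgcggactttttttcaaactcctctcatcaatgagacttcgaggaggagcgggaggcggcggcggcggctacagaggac
The motifs were GACCACCCA, the consensus of Gli factors, its core ACCACCC, the Glis-type ACCCCCCA, and the homeodomain core TAATTA, each read on both strands. They occurred in 0.253%, 4.61%, 1.53% and 5.29% of the 32851 windows, where windows with the first also hold its core. The core stood once among the 7 windows, at -205 to -199 from the Gli2 start on the opposite strand, and none of the other 3 motifs was in any of the 7. No match says only that these letters are not in this window. The windows were rich in G and C, with 81.3% for Glis1, 76.3% for Glis3 and 67.3% for Gli2.

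Glis1 had 52, 52 and 43 counts in WT and 938, 579 and 434 counts in Dlx2OE, or 1.78, 1.73 and 1.38 CPM against 31.7, 18.4 and 16.0 CPM. All 3 WT samples were far below all Dlx2OE samples, and Dlx2OE 1 was the highest. The means were 1.63 ± 0.216 and 22.0 ± 8.42 CPM, with a log2 fold change of 3.76 (SE 0.303). Glis3 had 249, 293 and 324 counts in WT and 1590, 1010 and 895 counts in Dlx2OE, or 8.51, 9.72 and 10.4 CPM against 53.7, 32.2 and 33.0 CPM. Dlx2OE 1 was again the highest and the ranges did not overlap. The means were 9.54 ± 0.955 and 39.6 ± 12.2 CPM, with a log2 fold change of 2.05 (SE 0.219). Both genes passed the threshold in all 15 alternative fits. With 1 sample left out at a time, the log2 fold change was 3.39 to 3.94 for Glis1 and 1.76 to 2.18 for Glis3.

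Glis2 (ENSMUSG00000014303, chr16:4594713-4624924, plus strand) encodes the third factor of the family, whose loss is linked to the kidney disease nephronophthisis. Its level was 42.7, 46.1 and 62.8 CPM in WT and 50.3, 48.5 and 61.1 CPM in Dlx2OE. The ranges overlapped, with means of 50.5 ± 10.7 and 53.3 ± 6.82 CPM and a log2 fold change of 0.08 (SE 0.164). Its sign turned in 2 of the 15 alternative fits. Of its exon bases, 10.4% are shared with Pam16, a gene of mitochondrial protein import with 289 to 466 counts per sample.

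Levels per length, as RPKM (TMM-scaled CPM per kilobase of merged exons), set the genes beside each other. In WT, Smo was highest at 36.8 ± 5.28 RPKM, followed by Gli1 at 17.0 ± 1.90, Ptch1 at 16.0 ± 1.98, Gli3 at 12.9 ± 1.81, Glis2 at 11.6 ± 2.46 and Gli2 at 11.1 ± 1.30. Neighbours from Gli1 to Gli2 overlapped in their sample ranges. With the longest transcript as the length, Ptch1 at 21.9 RPKM stood above Gli1 at 20.9 RPKM. Below them, and without overlap between neighbours, came Shh at 5.90 ± 0.696, Hhip at 2.19 ± 0.488, Glis3 at 1.08 ± 0.108 and Glis1 at 0.446 ± 0.0593 RPKM. In Dlx2OE the lower end of the order changed: Glis1 at 6.05 ± 2.31 and Glis3 at 4.48 ± 1.38 RPKM, which overlapped each other, stood above Shh at 2.39 ± 0.691 and Hhip at 0.984 ± 0.0935 RPKM. At the upper end, Smo was highest at 43.3 ± 2.95 RPKM. Gli3, Gli1, Gli2, Ptch1 and Glis2 followed from 19.5 ± 1.35 to 12.2 ± 1.56 RPKM, each overlapping its neighbour.

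The same scale gives the makeup of each family. Glis2 made up 88.1 ± 1.84% of the summed Glis RPKM in WT and 54.3 ± 9.82% in Dlx2OE, Glis1 3.54 ± 1.03% and 26.2 ± 6.62%, and Glis3 8.35 ± 0.871% and 19.5 ± 3.24%. The summed Glis level was 11.2, 12.1 and 15.9 RPKM in WT and 26.2, 19.8 and 22.1 RPKM in Dlx2OE. Among the Gli genes, Gli1 made up 41.5 ± 3.13% in WT and 33.3 ± 3.11% in Dlx2OE, Gli2 27.1 ± 2.27% and 32.1 ± 2.73%, and Gli3 31.4 ± 1.46% and 34.6 ± 0.61%. The summed Gli level was 41.5, 36.5 and 44.7 RPKM in WT and 61.4, 54.6 and 52.8 RPKM in Dlx2OE.

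**Figure D3:**
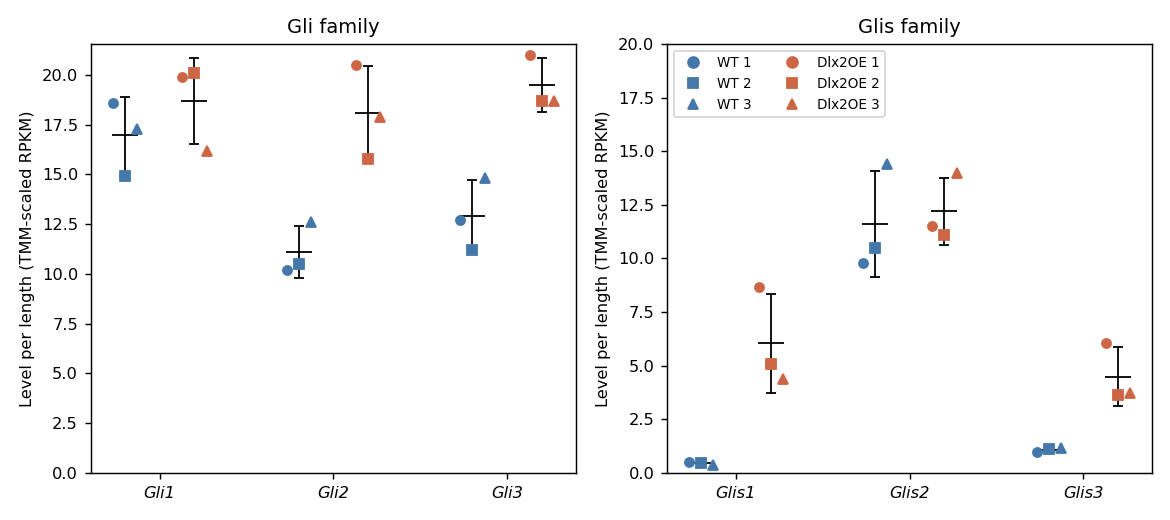
Levels per length of the Gli genes (left) and Glis genes (right) in each sample, in TMM-scaled RPKM on linear axes that start at 0. Bars mark the mean and whiskers the SD over 3 samples. Glis2 overlaps between WT (blue) and Dlx2OE (orange) while the means of Glis1 and Glis3 are 0.446 and 1.08 RPKM in WT and 6.05 and 4.48 RPKM in Dlx2OE.

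The remaining components of the pathway were read from 3 lists of 34 genes, of which 33 were tested. Of these, 2 rose and 0 fell, beside 2.99% and 3.46% of all genes tested. The median log2 fold change was 0.18, beside 0.003 over all genes tested. Of the 33 fold changes, 30 were positive, beside 50.3% of all genes tested. DESeq2 called 5 higher and 0 lower, beside 12.6% of all genes it tested in either direction. In edgeR, 10 of the 33 (30.3%) had an unadjusted p under 0.05, beside 29.5% of all genes.

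The 2 that rose encode co-receptors that present ligand to Patched. Cdon was at 67.4, 64.6 and 80.9 CPM in WT and 141, 126 and 122 CPM in Dlx2OE (log2 fold change 0.87, SE 0.117, adjusted p = 0.0116, edgeR). Gas1 was at 91.1, 100 and 114 CPM in WT and 239, 161 and 157 CPM in Dlx2OE (log2 fold change 0.86, SE 0.180, adjusted p = 0.0352, edgeR). All Dlx2OE samples were above all WT samples for both genes. The call of Cdon was lost without WT 1 or WT 2 (adjusted p = 0.0508 and 0.0663, edgeR), and that of Gas1 without WT 1, WT 2, Dlx2OE 2 or Dlx2OE 3 (adjusted p = 0.116, 0.147, 0.0698 and 0.0506, edgeR). The log2 fold changes with 1 sample left out were 0.80 to 0.97 for Cdon and 0.63 to 0.97 for Gas1. The third co-receptor, Boc, was at 53.7, 58.6 and 68.7 CPM in WT and 92.1, 70.0 and 77.3 CPM in Dlx2OE, and did not pass (log2 fold change 0.40, SE 0.137, adjusted p = 0.103, edgeR). Lrp2, an endocytic receptor that binds Shh, had a log2 fold change of -0.39 (SE 0.268, adjusted p = 0.356, edgeR).

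Of the other ligands, Ihh was too low to be tested at 0.166 to 0.554 CPM, and Dhh was at 0.236 to 0.997 CPM with a log2 fold change of 0.18 (adjusted p = 0.837, edgeR). None of the 7 tested genes of ligands, lipidation and release passed in edgeR, beside 6.45% of all genes tested. Of the 7, 1 (14.3%) had an unadjusted p under 0.05, beside 29.5% of all genes. DESeq2 called 1, beside 12.6% of all genes it tested. Disp1, which releases the lipid-modified ligand from the cell, was nearest at 26.1, 31.1 and 33.4 CPM in WT and 51.9, 38.4 and 46.7 CPM in Dlx2OE (log2 fold change 0.60, SE 0.145, adjusted p = 0.0511, edgeR). None of the 21 genes of signal transduction passed in edgeR, 5 (23.8%) had an unadjusted p under 0.05, and DESeq2 called 2, beside the same shares of all genes. The log2 fold changes of these 21 genes lay between -0.39 and 0.52 with a median of 0.11. Sufu, which holds Gli factors in the cytoplasm, and Kif7, the ciliary kinesin of the pathway, were at 0.03 and 0.04 (adjusted p = 0.861 and 0.781, edgeR). Gsk3b, a kinase that phosphorylates Gli factors for processing, had the highest value at 0.52 (adjusted p = 0.0570, edgeR).

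**Figure D4:**
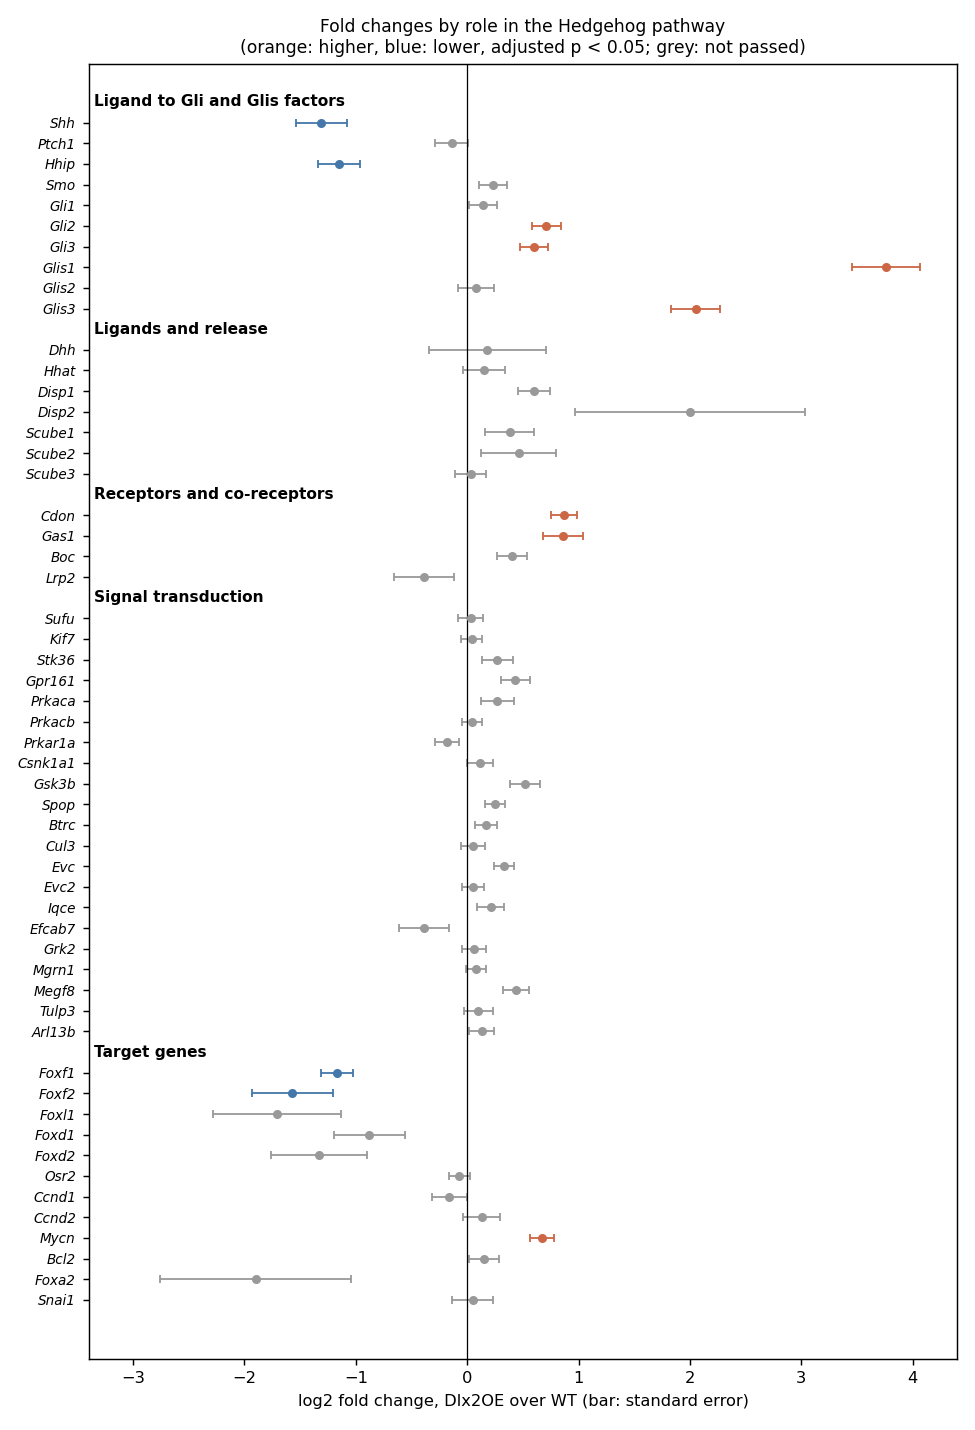
Log2 fold change of Dlx2OE over WT for the 10 genes, other components by role, and the target genes tested, with 0 meaning equal levels. Bars are standard errors derived from the fold change and F statistic of the edgeR fit over 3 and 3 samples. Orange points are higher and blue points lower at adjusted p under 0.05, grey points did not pass, and the signal transduction genes lie between -0.39 and 0.52.

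Since the pathway runs through the primary cilium, 44 genes of ciliary assembly and intraflagellar transport were read next. Of these, 1 fell and 0 rose, beside 6.45% of all genes passing in either direction, with a median log2 fold change of -0.05. An unadjusted p under 0.05 was found for 15 of the 44 (34.1%) in edgeR, beside 29.5% of all genes. The 1 gene that fell was Ift57, a component of the anterograde transport complex. Ift57 was at 18.4, 18.5 and 18.0 CPM in WT and 12.9, 13.2 and 11.5 CPM in Dlx2OE (log2 fold change -0.55, SE 0.128, adjusted p = 0.0456, edgeR). Its call held only without Dlx2OE 1 among the 6 fits that left out 1 sample (adjusted p = 0.0472 to 0.160 over the 6, edgeR), with log2 fold changes from -0.59 to -0.49, and DESeq2 called 4 genes of the list, all lower, beside 12.6% of all genes it tested.

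Targets of the pathway in the face and in other tissues formed a list of 14 genes, of which 12 were tested. Of these, 1 rose and 2 fell, beside 2.99% and 3.46% of all genes tested, with a median log2 fold change of -0.52. An unadjusted p under 0.05 was found for 6 of the 12 (50%) in edgeR, beside 29.5% of all genes. DESeq2 called 1 higher and 4 lower, beside 12.6% of all genes it tested in either direction. Foxf1 and Foxf2 encode forkhead factors of the palatal and oral mesenchyme that respond to Shh. Foxf1 was at 45.8, 52.2 and 59.4 CPM in WT and 25.2, 25.3 and 19.5 CPM in Dlx2OE (log2 fold change -1.17, SE 0.146, adjusted p = 0.0101, edgeR). Foxf2 was at 71.0, 70.9 and 112 CPM in WT and 14.6, 27.7 and 43.4 CPM in Dlx2OE (log2 fold change -1.57, SE 0.366, adjusted p = 0.0454, edgeR). All Dlx2OE samples were below all WT samples for both genes. The call of Foxf1 was lost without WT 2 (adjusted p = 0.0580, edgeR), and that of Foxf2 without WT 1, WT 2, WT 3 or Dlx2OE 2 (adjusted p = 0.102, 0.133, 0.0768 and 0.130, edgeR), with log2 fold changes of -1.26 to -1.05 and -2.0 to -1.26 over the 6 fits.

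The other forkhead genes of the list did not pass. Foxl1 was at 24.3, 20.8 and 32.9 CPM in WT and 1.86, 8.09 and 13.9 CPM in Dlx2OE (log2 fold change -1.71, SE 0.574, adjusted p = 0.101, edgeR). Foxd2 was at 24.7, 15.7 and 21.9 CPM in WT and 3.11, 10.2 and 11.5 CPM in Dlx2OE (log2 fold change -1.33, SE 0.430, adjusted p = 0.0933, edgeR). Neither gene overlapped between the genotypes, and Dlx2OE 1 was the lowest sample for Foxf2, Foxl1 and Foxd2. Foxa2, a forkhead gene of the floor plate and endoderm, was low, at 2.19, 2.79 and 1.96 CPM in WT and 0, 0.573 and 1.29 CPM in Dlx2OE (log2 fold change -1.90, SE 0.860, adjusted p = 0.183, edgeR), and its ranges did not overlap. Foxd1 had a log2 fold change of -0.88 (SE 0.318, adjusted p = 0.12, edgeR), with overlapping ranges. Mycn, a proliferation gene, was the one that rose, from 41.2, 33.4 and 38.3 CPM in WT to 61.0, 57.9 and 60.5 CPM in Dlx2OE (log2 fold change 0.67, SE 0.105, adjusted p = 0.0174, edgeR). Its call was lost without WT 2, Dlx2OE 2 or Dlx2OE 3 (adjusted p = 0.0814, 0.0614 and 0.0563, edgeR). Osr2, a palatal shelf factor, and the cyclin gene Ccnd1 had log2 fold changes of -0.07 and -0.16 and did not pass (adjusted p = 0.638 and 0.514, edgeR). Genes known to be induced by the pathway did not all share a direction. Gli1 and Ptch1 overlapped between the genotypes, Hhip, Foxf1 and Foxf2 were lower, and Mycn was higher. Foxl1, Foxd2 and Foxa2 were lower in every Dlx2OE sample without passing, and Foxd1 had a negative fold change with overlapping ranges.

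**Figure D5:**
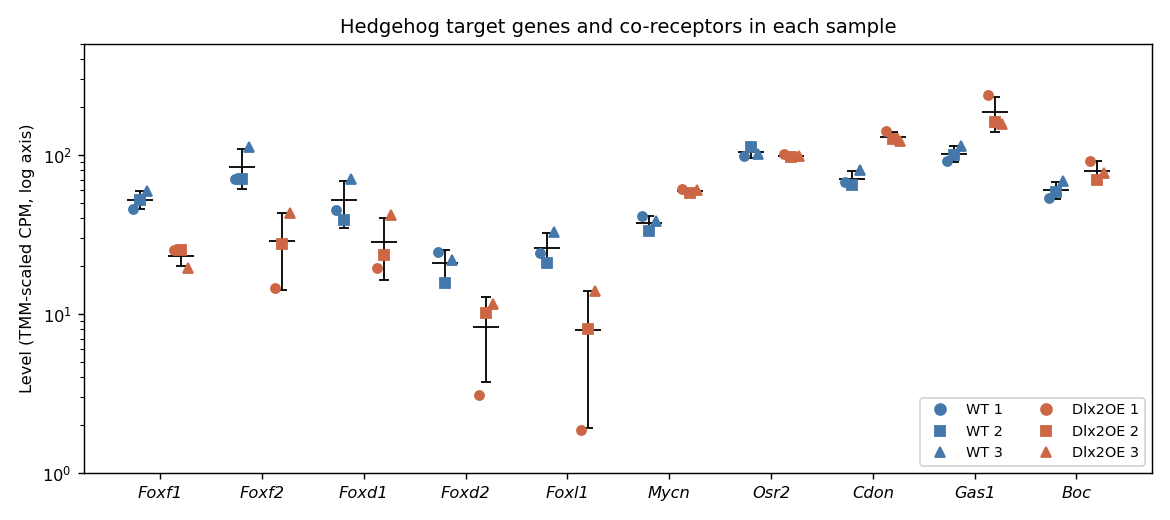
Levels of Hedgehog target genes and of the co-receptor genes Cdon, Gas1 and Boc in each sample, in TMM-scaled CPM on a log axis, with WT in blue and Dlx2OE in orange. Bars mark the mean and whiskers the SD over 3 samples. Foxf1 and Foxf2 sit lower and Mycn, Cdon and Gas1 higher in all 3 Dlx2OE samples.

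The Zic genes encode factors with zinc fingers related to those of Gli. Of 5, 2 were high enough to be tested and 0 passed in edgeR or DESeq2, beside 6.45% and 12.6% of all genes tested. Of the 2, 1 had an unadjusted p under 0.05, beside 29.5% of all genes. Zic1 had a log2 fold change of 1.53 (SE 0.631, adjusted p = 0.154, edgeR) and was at 0.683 to 1.69 CPM in WT and 1.05 to 5.69 CPM in Dlx2OE. Without Dlx2OE 1, 3 Zic genes passed, all higher, beside 10.7% of all genes tested in that fit. The 5 Zic genes summed to 1.64 to 4.15 CPM in WT and 1.22, 7.26 and 16.4 CPM in Dlx2OE 1, 2 and 3.

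Markers of other cells in the dissected tissue also moved between the samples. The tissue label was checked with 10 maxillary mesenchyme markers, which were all detected and summed to 3430 to 3590 CPM in WT and 3890 to 4140 CPM in Dlx2OE. Of the 10, Alx4 and Twist1 were higher (log2 fold changes 1.39 and 0.65, adjusted p = 0.0211 and 0.0402, edgeR), beside 2.99% of all genes tested. Of the 4 mandibular and second arch markers, Hand1 and Hoxb2 were at or near 0 and Hoxa2 was at 0.270 to 1.62 CPM. Hand2, a factor of the distal mandibular arch, was detected in every sample, at 9.02 to 16.3 CPM in WT and 7.35 to 19.8 CPM in Dlx2OE. The 10 neuron markers summed to 153 to 429 CPM in WT and 287, 805 and 1720 CPM in Dlx2OE 1, 2 and 3. None of the neuron markers passed in edgeR, beside 6.45% of all genes tested. Of the 10, 5 had an unadjusted p under 0.05, beside 29.5% of all genes. DESeq2 called 2 higher, beside 12.6% of all genes it tested in either direction. Of the 6 glia and crest markers, Foxd3 was at 0 in all samples and the sum was 141 to 148 CPM in WT and 93.2 to 316 CPM in Dlx2OE. Sums of the 8 muscle markers were 188 to 357 CPM in WT and 79.8 to 238 CPM in Dlx2OE, and those of the 6 cartilage markers 538 to 804 and 275 to 653 CPM. No gene of these 3 lists passed in edgeR, with 1, 2 and 3 at an unadjusted p under 0.05, and DESeq2 called 0, 1 and 2. The shares of all genes were 6.45%, 29.5% and 12.6%, in that order. The 7 endothelial markers summed to 291 to 438 CPM in WT and 210 to 333 CPM in Dlx2OE, with Emcn lower, beside 3.46% of all genes tested. The 6 blood markers summed to 3010 to 4140 CPM in WT and 1880 to 2430 CPM in Dlx2OE, with Alas2 and Hba-a1 lower, beside the same 3.46%. The calls of Alx4, Twist1, Emcn, Alas2 and Hba-a1 held in 3, 1, 2, 2 and 2 of the 6 fits that left out 1 sample, and each was lost without WT 1, WT 2 or Dlx2OE 2 (adjusted p up to 0.108, 0.156, 0.157, 0.0887 and 0.131, edgeR). Among the Dlx2OE samples, Dlx2OE 1 held the highest Glis1, Glis3, Gli2 and Gas1 levels. Dlx2OE 1 also had the highest sums of epithelial (2270 CPM), brain (67.4 CPM) and mesenchyme markers (4140 CPM) among them. Its sums of neuron, glia and crest, muscle, cartilage and endothelial markers were the lowest of the Dlx2OE samples. For blood and for mandibular and second arch markers it lay between the other Dlx2OE samples. The part of these cells in the Gli and Glis differences was not tested. Without Dlx2OE 1, 5 of the 10 genes passed the threshold (all but Gli3 of the 6), beside 10.7% of all genes tested. Without Dlx2OE 3, 3 did (Hhip, Glis1 and Glis3), beside 1.76%.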

How the data were processed

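Poly(A) RNA of 3 WT and 3 Dlx2OE samples was sequenced in pairs of 150 bases. The authors aligned reads to mm10 with STAR 2.7.3a and counted with HTSeq 0.12.4, per the submitters' processing notes, and deposited raw read counts per Ensembl gene. The annotation release and strand setting are not given in the sources used here. Counts outside genes (5.34% to 15.4% on none, 6.26% to 7.36% ambiguous) stayed out of library sizes. Symbols and exon lengths were taken from GENCODE M21, which held 53706 of the 53801 genes.

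The counts were fitted with edgeR 4.0.16 (R 4.3.3, filterByExpr with a minimum count of 10, TMM factors, quasi-likelihood test on genotype, Benjamini-Hochberg adjustment over 17514 genes). Passing means an adjusted p under 0.05, and fold calls add an absolute log2 fold change above 1. Alternatives were DESeq2 1.42.0, other scalings and filters, a length and GC correction, a replicate block, no mitochondrial and haemoglobin genes, and leaving out each sample. P-values measure the spread between 3 RNA samples per genotype. SE is the absolute log2 fold change divided by the square root of the quasi-likelihood F statistic.

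The genes described and all lists were chosen with earlier results of these data known. Named were the 10 genes, other Hedgehog ligands, receptors and co-receptors, up to 8 passing genes with the smallest p of each other list, markers near 0 or passing, the 5 genes most like Gli1, and Dlx2. Disp1, Sufu, Kif7, Gsk3b, the target genes and Zic1 without a call, Epcam, Krt5, Cldn6, Nkx2-1, Hand2, Hoxa2 and overlapping genes were named after their values were seen. Shh relative to epithelial markers was an alternative chosen after seeing the data. A listed gene is not reported here. Plots were drawn with matplotlib.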

Additional observations from a re-analysis of the deposited data

Results flagged for a closer look

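Read pairs on no annotated gene, which enter no comparison above, took a larger share in the Dlx2OE libraries than in the WT libraries. The share was 6.03% in Dlx2OE 1, 8.21% in Dlx2OE 2 and 15.4% in Dlx2OE 3, against 5.34%, 5.79% and 5.54% in WT 1, 2 and 3. What these read pairs are was not analysed here, and their part in the differences between genotypes was not tested.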

How the results depend on the processing

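Glis1 and Glis3 kept their direction and side of the threshold in all 15 alternatives, and Shh, Hhip, Gli2 and Gli3 kept their direction in all 15 but the threshold in 10, 12, 10 and 8. With 1 sample left out at a time (leave-one-out), there were 79 to 2091 genes passing of all genes (1130 with all samples), 2 to 6 of the 10 genes (6), 0 to 6 other Hedgehog components (2), 0 to 6 cilium genes (1), 0 to 6 targets (3) and 0 to 3 Zic genes (0). The lowest counts for all genes came without WT 2 (79), WT 1 (180), Dlx2OE 2 (213) and Dlx2OE 3 (315), and the highest without WT 3 (2091) and Dlx2OE 1 (1944). DESeq2 gave 2417 genes, 5 other components, 4 cilium genes and 5 targets. With no filter on low counts these were 2044 genes, 4 components and 6 targets, and with at least 10 counts in every sample 2 cilium genes passed. With the length and GC correction 837 genes and 0 cilium genes passed. The fold threshold left 546 genes, 0 components and 0 cilium genes. The replicate block gave 961 genes, 6 of the 10 genes and 4 targets. Deviations from the genotype means correlated between same-numbered samples at -0.0718, -0.211 and 0.0731. Between samples of different numbers, the correlations ran from -0.204 to 0.345. With 3 samples per genotype, these values cannot tell whether replicate numbers pair the samples. With the length and GC correction and the replicate block together, 134 genes, 2 of the 10 genes, 0 components, 0 cilium genes and 0 targets passed. The cause of these changes was not tested. Scaling by library size alone moved the median log2 fold change of all genes to 0.07. Depth limits Ihh and Dhh, which were under 1 CPM in every sample.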
